A study of Mus musculus with 12 samples.

Results

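Aquaporins are channel proteins that let water, and for some members glycerol, urea or ammonia, cross cell membranes along osmotic or concentration gradients. The 8 aquaporin genes described here are Aqp1, Aqp3, Aqp4, Aqp5, Aqp7, Aqp8, Aqp9 and Aqp11, chosen as every array spot whose gene name, or the symbol of its Entrez number, equals one of these names. They were read by 13 of the 41011 named spots, and are 8 of the 26228 named genes on the array. RNA was measured on 12 Agilent arrays labelled with a single dye (Cy3), from female mice of the B6C3F1/Nctr strain, a hybrid line used in toxicology. The 4 groups of 3 arrays were untreated liver (title numbers 1, 3 and 4), liver after acrylamide at 0.7 mM (27, 29 and 30), untreated lung (4, 5 and 6) and lung after acrylamide at 0.7 mM (28, 29 and 30). Acrylamide is a small reactive compound formed when starchy food is heated. Controls were matched in age. No age, dosing route or exposure time is given in the labels. They name no genotype beyond the strain, and nothing in them says that each array is its own animal, so p-values measure only the spread between these arrays, which may be technical.

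The tissue entry of the labels says liver for all 12 arrays, whereas titles and source names give lung for 6 of them. Marker genes separated the arrays by title: the mean of 8 alveolar type 2 cell genes minus the mean of 8 hepatocyte genes lay between -10.22 and -7.34 log2 units on the 6 liver arrays and between 7.45 and 8.50 on the 6 lung arrays. Titles begin with 19 on all liver arrays and with 18 on all lung arrays, and the labels do not say what these numbers mean. If they mark slides, the effects of slide and of tissue cannot be told apart. The digit after them, 1 or 2, divides the arrays of each tissue, and is unexplained too. Liver acrylamide 30 was the dimmest array, with 34287 spots above background against at least 46450 on each of the other arrays. Levels below are log2 intensities relative to the 75th percentile of each array, so that 0 is a spot as bright as that percentile, and a spot counted as above background when it exceeded the 95th percentile of the array's 308 negative control spots.

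The family is usually divided by what the pore carries. Aqp1, Aqp4 and Aqp5 are mainly water channels. Aqp3, Aqp7 and Aqp9 are aquaglyceroporins, which also pass glycerol. Aqp8 passes water and ammonia, and Aqp11 is a distant member found on intracellular membranes. In lung, Aqp5 is known from the apical membrane of alveolar type 1 cells and from airway glands, Aqp1 from capillary endothelium, and Aqp3 and Aqp4 from airway epithelium. In liver, Aqp9 is known as the hepatocyte channel for glycerol uptake, and Aqp8 from the canalicular membrane and inner compartments of hepatocytes. Aqp1 in liver is known from bile duct cells and endothelium.

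The 250 bases before an annotated transcription start are shown for 4 members. These genes were picked because they gave the largest difference in favour of lung (Aqp5) and the 3 largest in favour of liver (Aqp8, Aqp9 and Aqp11). The windows are RefSeq sequences of build GRCm38.p6, written 5′ to 3′ along the strand of the gene. Capitals mark matches on either strand to 5 motifs: TATAAA, the core of the TATA box, GGGCGG, the core of the GC box, CCAAT, the core of the CCAAT box, CACGTG, an E-box, and GTTAAT, part of the site of the liver factor HNF1.
Aqp5, chr15:99590778-99591027, plus strand: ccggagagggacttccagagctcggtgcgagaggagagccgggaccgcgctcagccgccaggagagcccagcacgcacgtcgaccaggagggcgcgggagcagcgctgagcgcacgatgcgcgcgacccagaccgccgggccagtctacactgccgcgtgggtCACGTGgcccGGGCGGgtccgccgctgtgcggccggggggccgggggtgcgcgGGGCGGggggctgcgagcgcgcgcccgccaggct
Aqp8, chr7:123462044-123462293, plus strand: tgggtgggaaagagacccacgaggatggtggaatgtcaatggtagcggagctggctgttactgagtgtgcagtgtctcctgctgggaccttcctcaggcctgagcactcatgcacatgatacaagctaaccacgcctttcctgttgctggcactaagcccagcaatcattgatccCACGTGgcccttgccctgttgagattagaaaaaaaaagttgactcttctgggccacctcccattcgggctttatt
Aqp9, chr9:71163290-71163539, minus strand: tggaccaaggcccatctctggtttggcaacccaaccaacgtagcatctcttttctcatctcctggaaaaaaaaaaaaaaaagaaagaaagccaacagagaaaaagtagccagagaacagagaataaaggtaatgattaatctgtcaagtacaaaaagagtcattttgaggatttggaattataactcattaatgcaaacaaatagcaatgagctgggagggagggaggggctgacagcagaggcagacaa
Aqp11, chr7:97738248-97738497, minus strand: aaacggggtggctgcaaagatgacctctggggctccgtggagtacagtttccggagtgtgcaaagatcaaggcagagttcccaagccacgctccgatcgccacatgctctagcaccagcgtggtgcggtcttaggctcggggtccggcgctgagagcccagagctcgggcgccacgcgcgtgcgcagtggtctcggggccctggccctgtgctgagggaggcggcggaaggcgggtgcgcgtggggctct
The Aqp5 window was 78.4% G and C and held 38 CpG sites, more than 98.12% of all promoter windows of this length, and it held GGGCGG at 2 places and CACGTG at 1. The Aqp11 window held 23 CpG sites and the Aqp8 window 5, with CACGTG at 1 place. The Aqp9 window printed here held 1 CpG site and none of the 5 motifs, and the window of a second Aqp9 start held 3 CpG sites and none of them either. The annotated Aqp9 gene reaches to position 71167849, upstream of both windows, and the bases before that end were not examined. Over all 32851 windows of 250 bases in the table the median was 6 CpG sites and 52.4% G and C, and the share holding a motif was 12.37% for TATAAA, 32.74% for GGGCGG, 33.85% for CCAAT, 6.021% for CACGTG and 6.432% for GTTAAT. Of the 8 members 7 matched the table, the exception being Aqp4. A match is only a stretch of letters, and no binding was measured.

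Lung and liver differed in all 8 genes on untreated arrays. Aqp5, Aqp3, Aqp4 and Aqp1 were higher in lung, and Aqp8, Aqp9, Aqp11 and Aqp7 were higher in liver, each at an adjusted p under 0.05 in limma with Benjamini-Hochberg adjustment over all 22441 genes tested. Most genes differ between tissues, and 74.4% of all genes tested passed the same threshold, 32% as higher and 42.4% as lower in lung. A difference of at least 8-fold that also passed was rarer, at 18% of all genes, and 6 of the 8 aquaporins reached it. Of these, Aqp4 reached it on its main spot, at 3.08 log2 units, but not on its second, at 0.93. Without lung control 4, Aqp3 fell just under it, at 2.99 log2 units. The 8 genes were chosen with earlier results of these data known. The median size of the difference, without sign, was 4.04 log2 units for the 8 aquaporins and 1.29 for all genes tested. In bulk tissue, fewer cells of a type and less RNA per cell cannot be told apart.

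**Figure D1:**
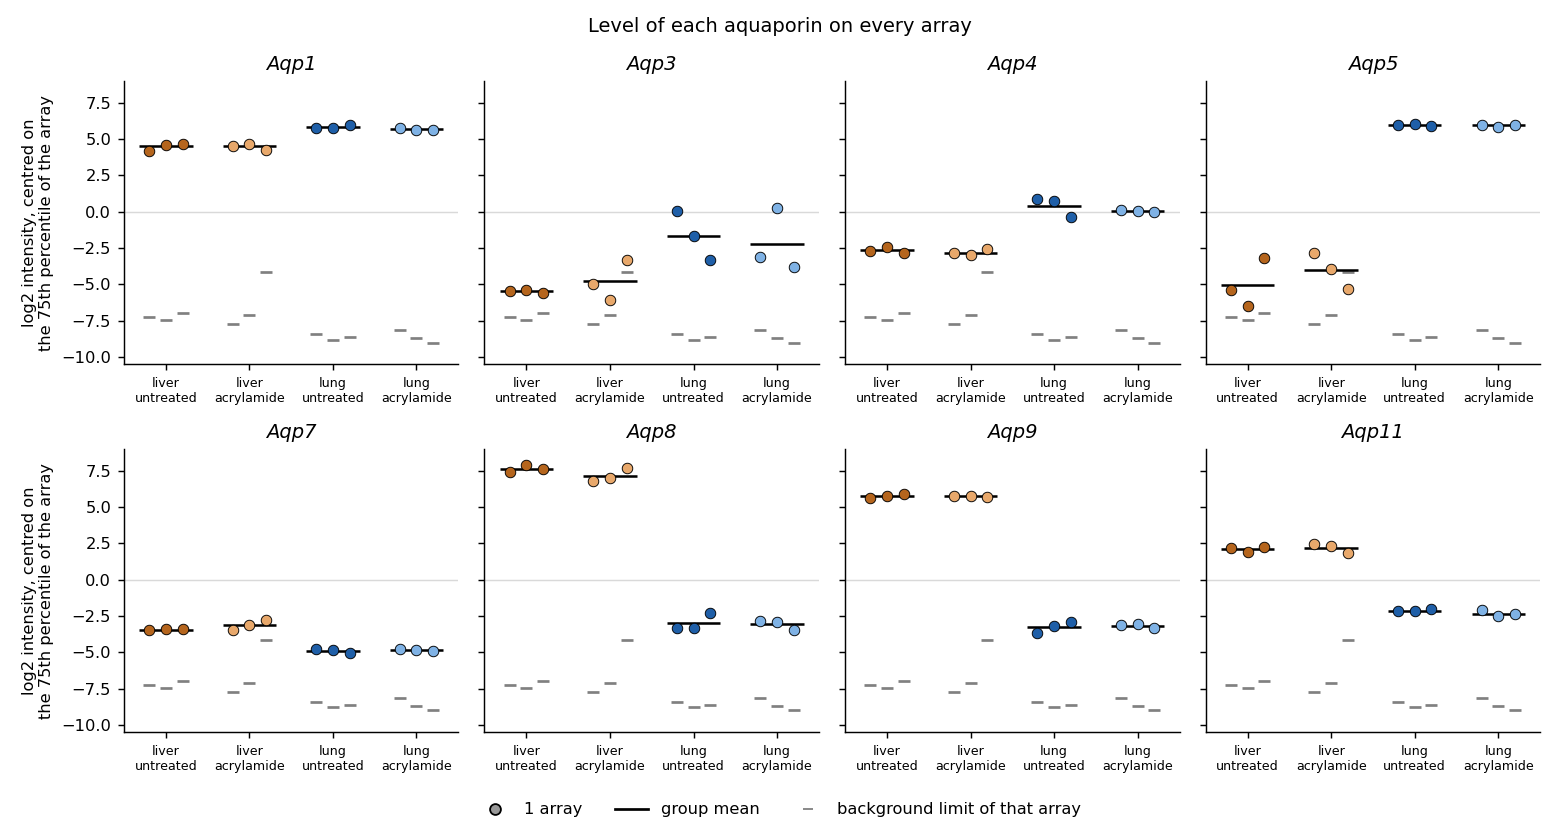
Level of the 8 aquaporins on each of the 12 arrays, as log2 intensity centred on the 75th percentile of the array (y axis), by group (x axis), with 1 point per array, black lines for group means and grey dashes for the background limit of that array. Aqp5 sits near 6 on all 6 lung arrays, Aqp8 and Aqp9 are high on all 6 liver arrays, and Aqp3 spreads over 4.08 log2 units among lung arrays.

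Aqp5, the water channel of alveolar type 1 cells, had the largest of the differences. Its levels in lung were 5.98, 6.05 and 5.89 on untreated controls 4, 5 and 6, and 5.99, 5.85 and 5.99 on acrylamide arrays 28, 29 and 30. These 6 lung values lay within 0.21 log2 units of each other, at raw intensities of 53389 to 87605. In untreated liver the levels were -5.41, -6.49 and -3.22 on controls 1, 3 and 4. On acrylamide liver arrays 27, 29 and 30 they were -2.82, -3.93 and -5.32, the last not above background. No liver array came near any lung array. The difference on untreated arrays was 11.01 ± 0.77 log2 units (SE, n = 3 and 3, adjusted p = 2.93e-05), a 2063-fold difference in intensity, and leaving out liver control 4 raised it to 11.92. A second Aqp5 spot gave 8.16 ± 0.29 (SE). Liver values of the main spot exceeded a stricter limit, at the 99th percentile of those control spots, on 3 of 6 arrays, so the size of the fold rests on dim liver signals.

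Among liver arrays, the Aqp5 values spread over 3.67 log2 units, and some lung and bile duct markers were higher on some of the same arrays. The 8 alveolar type 2 markers had a mean of -0.15 on acrylamide 27 and -0.88 on acrylamide 29, against -2.76 to -2.13 on the other 4 liver arrays. Sftpc, the surfactant protein C gene, was at 2.63 and -0.65 on those arrays and between -7.45 and -5.60 elsewhere. Others of that list were not higher there: Abca3, a surfactant lipid transporter, was at 5.44 and 5.54 on acrylamide 27 and 29 and at 5.58 to 6.01 on the other 4. The 8 markers of alveolar type 1 cells, the cells known for Aqp5, had means of -1.74 and -2.02, against -2.23 to -1.82 elsewhere. Markers of club cells, the secretory cells of the airway, had means of 2.77 and 2.2 there and of -0.96 to -0.54 elsewhere. On liver control 4, where the main Aqp5 spot was also high, the mean of 6 bile duct cell markers was -1.16, against -2.58 to -1.94 on the others, with Krt19 at 0.24 against -4.17 to -1.37. The second Aqp5 spot was highest on control 4, at -4.44, and lay between -5.42 and -5.11 on the other 5 liver arrays. The part of these cell types in the liver values of Aqp5 was not tested.

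Aqp1 was bright in both tissues and somewhat brighter in lung. Untreated lung arrays 4, 5 and 6 gave 5.80, 5.75 and 5.98, and untreated liver arrays 1, 3 and 4 gave 4.21, 4.63 and 4.64. The groups did not overlap, as for 78.8% of all genes tested. The difference was 1.35 ± 0.17 log2 units (SE, adjusted p = 0.000422), or 2.55-fold, which 48.26% of all genes equalled or exceeded in size. All 8 endothelial markers passed as higher in lung, by a median of 3.57, from Kdr, a receptor for vascular growth factor, at 1.61 to the clotting factor carrier Vwf at 5.49. Of 5 markers of liver sinusoidal endothelium, 4 passed as lower in lung and 1 as higher, with a median of -5.01. Over all genes tested, 32% passed as higher in lung and 42.4% as lower. Under quantile scaling the Aqp1 difference was 2.01.

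Aqp4, a water channel best known from astrocytes and also found in airway epithelium, was higher in lung. Levels in untreated lung were 0.89, 0.71 and -0.34 on arrays 4, 5 and 6, and levels in untreated liver were -2.70, -2.43 and -2.85 on arrays 1, 3 and 4. The difference was 3.08 ± 0.34 log2 units (SE, adjusted p = 0.000231). A second Aqp4 spot gave 0.93 ± 0.36 (SE), and the mean of both spots gave 2.01, so the size depends on the spot while the direction did not. Lung control 6 was the lowest lung array for Aqp4, and also for 5 ciliated cell markers, with a mean of 1.45 against 2.18 to 2.66 on the other 5 lung arrays. Among these markers, Dnah5, a motor protein of cilia, was at -0.41 on lung control 6 and at 1.5 on lung control 4. Control 6 was also lowest for the airway gland and goblet mean (-3.47, against -0.58 to 3.23), for 6 cardiac muscle markers (0.47, against 2.03 to 4.38) and for 7 fat cell markers (-1.23, against -0.46 to 0.87). The part of these cell types in the Aqp4 values was not tested.

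Of the aquaglyceroporins, Aqp3 was higher in lung and by far the most variable. Untreated lung arrays 4, 5 and 6 gave 0.05, -1.69 and -3.29, a 10.1-fold spread within 1 group. Untreated liver arrays 1, 3 and 4 gave -5.49, -5.39 and -5.56. Liver values were dim, at 1.78 to 6.88 times the background limit, and only 1 of 6 liver arrays exceeded the stricter limit. The difference was 3.84 ± 0.78 log2 units (SE, adjusted p = 0.00407), or 14.3-fold, the weakest p of the 8 genes. Without lung control 4 it was 2.99, and without lung control 6 it was 4.66.

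Across all 6 lung arrays Aqp3 ranged over 16.9-fold, with acrylamide 29 at 0.26 and control 4 at 0.05 as the highest, control 5 next at -1.69, and acrylamide 28, control 6 and acrylamide 30 at -3.13, -3.29 and -3.82. Basal cells are the keratin-rich stem cells of the airway lining, where Aqp3 is known to be made. The mean of 4 basal cell markers was 2.09 on acrylamide 29, 0.04 on control 4 and -1.50 on control 5, and lay between -2.51 and -2.35 on the other 3 lung arrays. Krt5 and Krt15, 2 basal keratins, were at 2.31 and 1.85 on acrylamide 29 and at -4.48 and -4.39 on acrylamide 30. Trp63, a basal cell transcription factor, did not follow, at 1.64 to 1.91 on all 6 lung arrays. The mean of 7 skeletal muscle markers was 1.53 on acrylamide 29, -1.26 on control 4 and -3.41 to -2.86 on the others, and the mean of 6 airway gland and goblet markers was 3.23 on control 4 and -3.47 on control 6. The part of these tissues in the Aqp3 values was not tested.

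**Figure D2:**
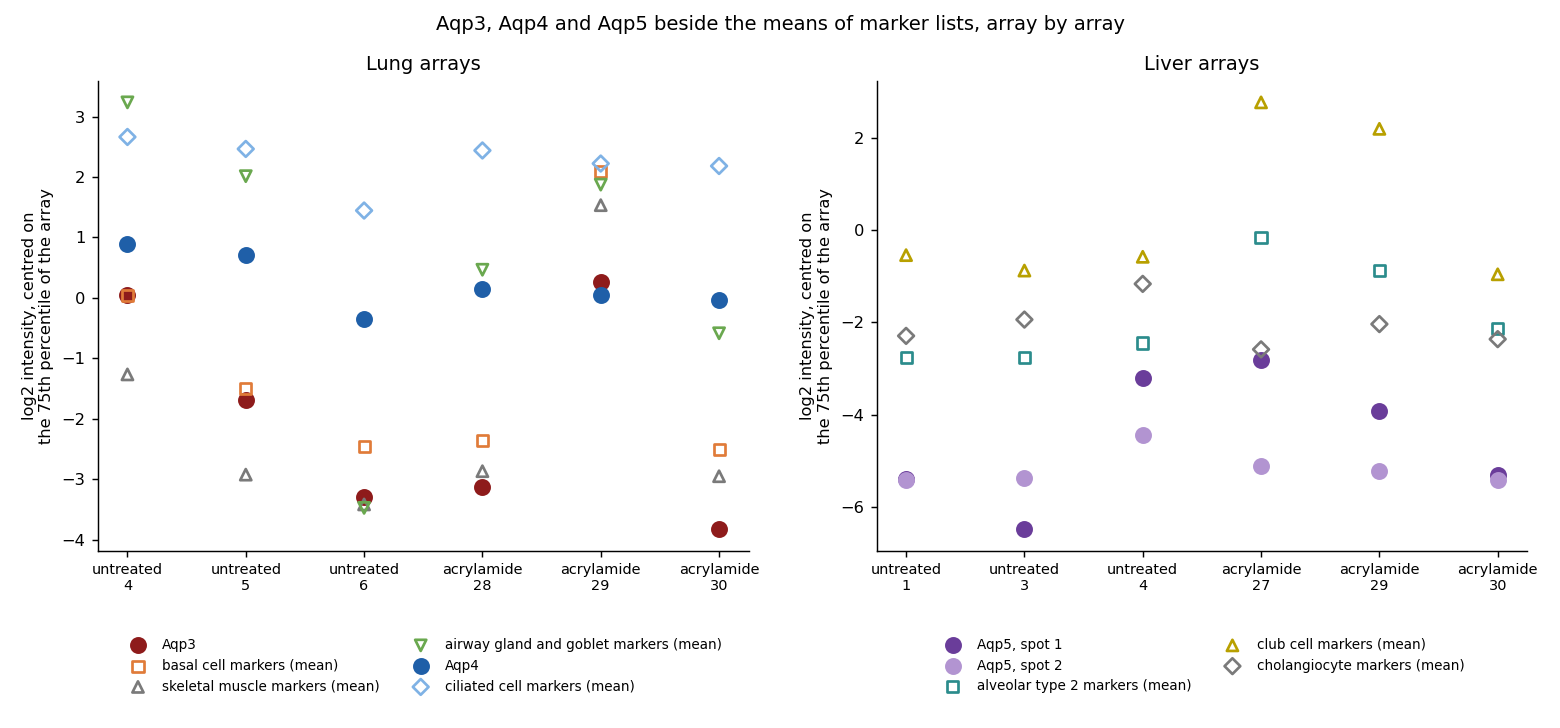
Aqp3 and Aqp4 on the 6 lung arrays and both Aqp5 spots on the 6 liver arrays (filled circles), beside the means of marker lists (open symbols), as log2 intensity centred on the 75th percentile of the array (y axis), with 1 column per array (x axis). Aqp3 and the basal cell mean are highest on lung acrylamide 29 and control 4, and the main Aqp5 spot is highest on liver acrylamide 27 and control 4.

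Aqp7, the channel by which fat cells release glycerol, was dim in both tissues and higher in liver on the scaled values. Untreated liver arrays 1, 3 and 4 gave -3.45, -3.43 and -3.43, and untreated lung arrays 4, 5 and 6 gave -4.76, -4.87 and -5.04. The groups did not overlap, and the difference was -1.46 ± 0.13 log2 units (SE, adjusted p = 9.05e-05), a 2.74-fold lower scaled signal in lung. Raw intensities were close, at 39.4 to 44.1 in untreated liver and 35.7 to 40.5 in untreated lung. The spots of Mip and Aqp12, above background on none of these arrays, differed by -1.59 and -1.58 on the same scale. A shift of that size thus also arose without detected signal, and its part in the Aqp7 difference was not tested. A second, dimmer Aqp7 spot gave -0.52 ± 0.20 (SE), and the mean of both spots -0.99. The mean of 7 fat cell markers ranged from -1.23 on control 6 to 0.87 on control 5 among lung arrays, whereas Aqp7 ranged over 0.29 log2 units there.

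Aqp9, the glycerol channel of hepatocytes, was steady within liver and dim in lung. Untreated liver arrays 1, 3 and 4 gave 5.63, 5.74 and 5.86, and untreated lung arrays 4, 5 and 6 gave -3.66, -3.23 and -2.90. The difference was -9.01 ± 0.21 log2 units (SE, adjusted p = 5.37e-07), a 514-fold difference, the lowest p of the 8 genes. A second spot, designed on another Aqp9 transcript record, was dim in both tissues and gave -1.45 ± 0.16 (SE). Its raw intensities were close, at 79.5 to 95.8 in untreated liver and 71.8 to 90.1 in untreated lung. The undetected spots of Mip and Aqp12 differed by -1.59 and -1.58, and the part of such a shift in the second Aqp9 spot was not tested. With the mean of both Aqp9 spots the difference was -5.23.

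Aqp9 and the other aquaglyceroporins share the handling of glycerol with a set of enzymes. Of 9 genes in this list none passed as higher and 6 passed as lower in lung, where 42.4% of all genes passed as lower, with a median difference of -1.19 beside -0.28 for all genes tested. Fbp1 and Pck1, enzymes of glucose synthesis, differed by -9.70 and -8.88, Gpd1, which links glycerol phosphate to sugar breakdown, by -3.87, and glycerol kinase, Gk, by -3.29. The lipase genes Lipe and Pnpla2 did not pass on untreated arrays, at 0.65 and 0.0084. On acrylamide arrays Lipe passed as higher in lung, at 1.41 ± 0.15 log2 units (SE, adjusted p = 0.000346).

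Aqp8 had the largest difference in favour of liver. Untreated liver arrays 1, 3 and 4 gave 7.42, 7.88 and 7.63, at raw intensities of 82537 to 104947, well under the brightest spot of any of these arrays. Untreated lung arrays 4, 5 and 6 gave -3.34, -3.32 and -2.32. The difference was -10.64 ± 0.31 log2 units (SE, adjusted p = 9.35e-07), a 1594-fold difference, and only 0.4768% of all genes tested differed as much in size. Of all genes tested, 42.4% passed as lower in lung, and the median difference of all genes was -0.28. All 7 genes of bile canalicular transport, the membrane where Aqp8 is known to sit, also passed as lower in lung, by a median of -6.67. Among them Abcc2, an exporter of bilirubin conjugates, differed by -11.50, with 2 of the 3 untreated lung arrays above background, and Abcb11, the bile salt export pump, by -11.05.

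Aqp11, whose loss in mice is known to cause kidney cysts, was also higher in liver. Untreated liver arrays 1, 3 and 4 gave 2.17, 1.93 and 2.26, and untreated lung arrays 4, 5 and 6 gave -2.15, -2.17 and -2.05. The difference was -4.25 ± 0.14 log2 units (SE, adjusted p = 1.45e-06), or 19.0-fold. Its second spot gave nearly the same value, -4.40 ± 0.23 (SE). Aqp11 was the gene whose 2 spots were closest to each other in this comparison.

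**Figure D3:**
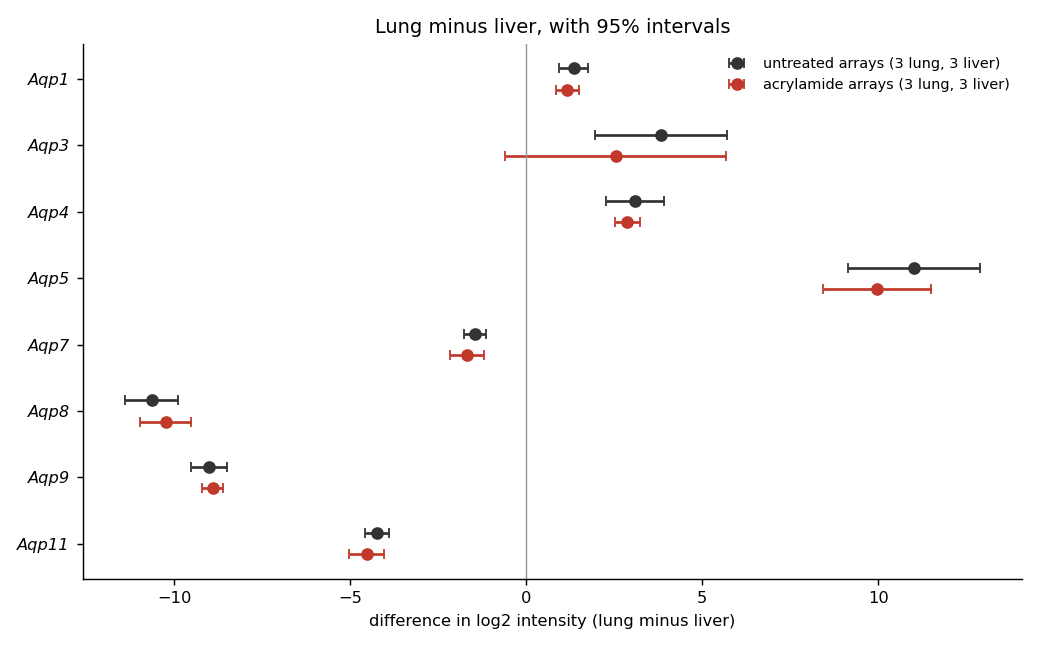
Difference in log2 intensity, lung minus liver (x axis), for each aquaporin (y axis) on untreated arrays (black) and acrylamide arrays (red), as points with 95% intervals from limma. Both intervals lie on 1 side of 0 for every gene but Aqp3, whose interval on acrylamide arrays runs from -0.60 to 5.67.

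The acrylamide arrays gave the same tissue comparison in RNA that the untreated comparison did not use. Of the 8 genes 7 passed again, in the directions above, 3 as higher and 4 as lower in lung, where 72.8% of 22115 genes tested passed, 31.3% as higher and 41.5% as lower. The groups did not overlap for the same 7 genes, as for 78.5% of all genes. The differences were 9.97 for Aqp5, 2.88 for Aqp4 and 1.17 for Aqp1, and -10.23 for Aqp8, -8.90 for Aqp9, -4.53 for Aqp11 and -1.68 for Aqp7. Aqp3 was the exception, at 2.54 ± 1.26 log2 units (SE, adjusted p = 0.118). Its acrylamide lung arrays 28, 29 and 30, at -3.13, 0.26 and -3.82, overlapped acrylamide liver arrays 27, 29 and 30, at -4.95, -6.05 and -3.31. The value of -3.31 came from the dimmest array, at 1.78 times its background limit. Without lung acrylamide 29 the Aqp3 difference was 1.3, and with weights that count noisier arrays less it was 3.76 (adjusted p = 0.0307). The second Aqp7 spot gave -0.49 ± 0.22 (SE) on acrylamide arrays. The spots of Mip and Aqp12 differed by -1.95 and -2.08 there, with Mip above background on none of these arrays and Aqp12 on 1. The part of such a shift in the Aqp7 difference was not tested. A difference of at least 8-fold that passed was reached by 4 of the 8 genes, beside 17.9% of all genes. Whether the tissue difference itself changed with acrylamide was tested as an interaction, given with the acrylamide results.

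Genes of related transport lists were set beside the aquaporins. Of 9 genes for alveolar ion and fluid transport, 6 passed as higher and 1 as lower in untreated lung, with a median of 1.97, where 74.4% of all genes passed. That share is near the 7 of 9 of this list. Scnn1g and Scnn1a, subunits of the epithelial sodium channel, differed by 9.51 and 2.63, Scnn1g against a liver signal above background on only 1 of the 3 untreated arrays, while Scnn1b, a further subunit of it, differed by -1.87. The chloride channel gene Cftr differed by 5.50 and Slc12a2, a chloride carrier, by 3.27. Of 6 osmotic response genes, 3 passed as higher and 2 as lower in lung, with a median of 0.82, again close to the share of all genes that passed. Slc6a12, a carrier of the osmolyte betaine, differed by -9.96, and Akr1b3, the enzyme that makes sorbitol, by 2.37.

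**Figure D4:**
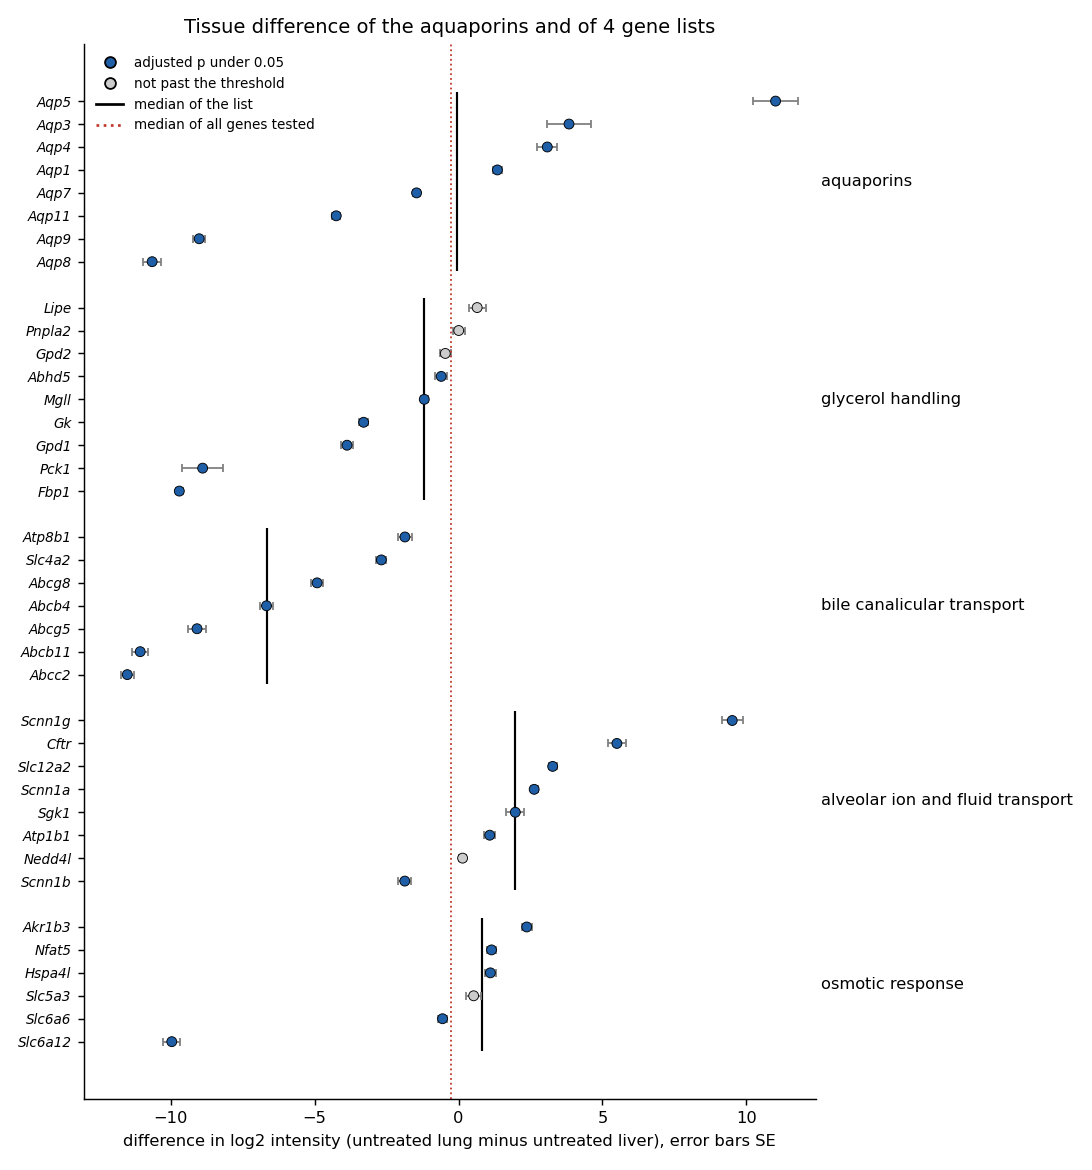
Difference in log2 intensity between untreated lung and untreated liver (x axis) for the 8 aquaporins and the genes of 4 lists (y axis), with SE bars, blue points for an adjusted p under 0.05, black lines for medians over whole lists (1 ion transport gene is not drawn) and a dotted line for the median of all genes tested (-0.28). All 7 bile canalicular genes lie below 0, and the aquaporins lie on both sides of it.

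Of 4 other genes of the family on the array, Aqp2 and Aqp6 were tested. Aqp2, the vasopressin-regulated channel of the kidney collecting duct, did not pass on untreated arrays, at 0.12 ± 0.22 log2 units (SE, adjusted p = 0.642). Aqp6, an anion-passing channel of kidney vesicles, was lower in lung, at -1.59 ± 0.21 log2 units (SE, adjusted p = 0.000603). Aqp12 and Mip, the lens channel, were not tested, as too few arrays were above background. Their spots, above background on none of the untreated arrays, still differed by -1.58 and -1.59, about as much as the main Aqp6 spot. In RefSeq's GRCm38.p6 annotation Aqp5 lies between Aqp2 and Aqp6 on chromosome 15, 6482 bases after the end of Aqp2 and 3638 bases before the start of Aqp6. The main spots of Aqp2, Aqp5 and Aqp6 thus gave tissue differences of 0.12, 11.01 and -1.59. Aqp7 and Aqp3 lie 44486 bases apart on chromosome 4, and differed in opposite directions.

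The genes closest to each aquaporin in pattern were found by the root mean square difference over the 12 arrays, after each gene's own mean was subtracted, among 18594 genes above background on 3 or more arrays, with predicted genes, clone names and the other aquaporins passed over. For Aqp5 they were Tspan1, Rgcc and Sftpd, at 0.68, 0.69 and 0.69 log2 units, where the spread of Aqp5 itself by the same measure was 5.32. For Aqp8 they were Apob, Uroc1 and Ftcd (0.23, 0.24 and 0.25, own spread 5.23), and for Aqp9 Pdzk1, Qprt and Tm4sf4 (0.14, 0.16 and 0.17, own spread 4.48). For Aqp11 they were Hsd17b13, Acaa1b and Acad11 (0.13, 0.16 and 0.18, own spread 2.2), and for Aqp4 Drc1, Ankrd6 and Cetn4 (0.19, 0.23 and 0.23, own spread 1.53). For Aqp1 they were Gpx7, Traf5 and Ppp2r5c (0.10 each, own spread 0.65), and for Aqp7 Dgcr6, Samm50 and Ddrgk1 (0.12, 0.13 and 0.14, own spread 0.81). For Aqp3 they were Mylk4, Cldn22 and Pln, at 0.63, 0.72 and 0.78, about as far off as those of Aqp5 but with a smaller own spread of 2.06. Mylk4 and Pln are known as muscle genes. Tissue dominates this measure, so many genes of either tissue share it.

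Acrylamide changed none of the 8 aquaporins in either tissue at an adjusted p under 0.05. In liver 0% of 21169 genes tested passed, and in lung 0% of 22252, in limma, while 1 gene passed in liver without acrylamide 27. At an unadjusted p under 0.05 there were 1278 genes in liver (6.04%) and 1102 in lung (4.95%), and no aquaporin was among them in either tissue. In liver the groups overlapped for all 8 aquaporins, while 12.2% of all genes tested had groups that did not overlap. The intervals below give the sizes that these arrays leave possible, since missing the threshold does not show that levels were equal.

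**Figure D5:**
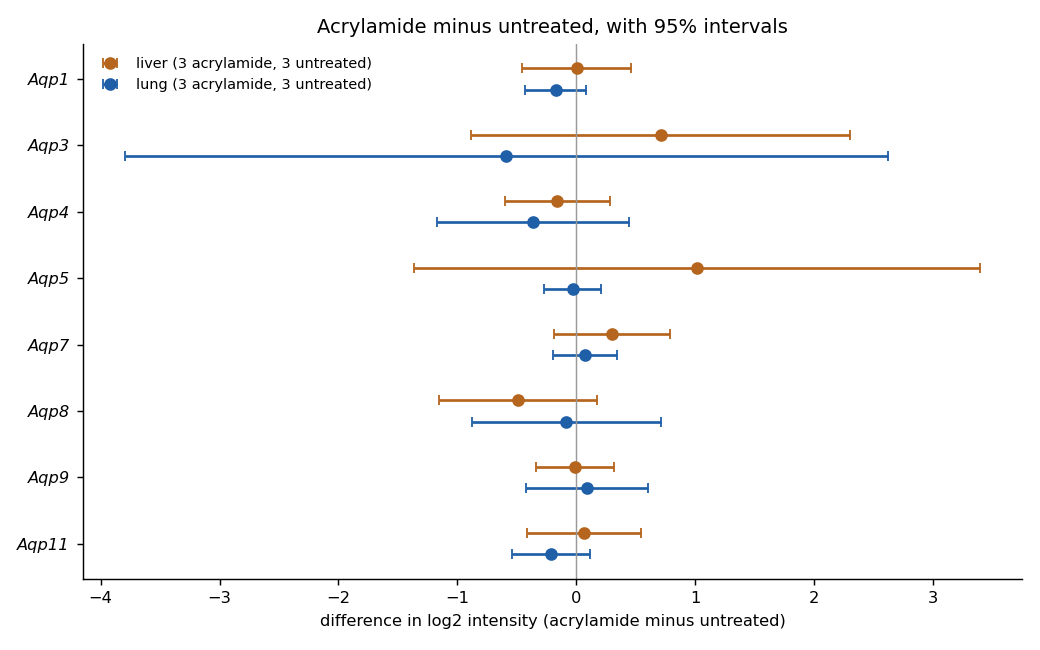
Difference in log2 intensity, acrylamide minus untreated (x axis), for each aquaporin (y axis) in liver (brown) and lung (blue), as points with 95% intervals from limma. Every interval includes 0, and the widest are those of Aqp3 in lung, from -3.79 to 2.62, and of Aqp5 in liver, from -1.37 to 3.39.

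In liver, Aqp8 came closest, with the lowest unadjusted p of the 8 genes, 0.121. Acrylamide arrays 27, 29 and 30 gave 6.78, 6.99 and 7.69, and untreated arrays 7.42, 7.88 and 7.63. Acrylamide 27 and 29 lay below every control, and acrylamide 30 within the controls. The difference was -0.49 ± 0.27 log2 units (SE, 95% interval -1.15 to 0.17, adjusted p = 0.784). Without acrylamide 30, the dimmest array, it was -0.76 ± 0.18 (adjusted p = 0.203), and without acrylamide 27 it was -0.30. Acrylamide 27 and 29 are the liver arrays with the raised alveolar and club cell markers given above, while the mean of 8 hepatocyte markers was 7.19, 7.22 and 7.44 on arrays 27, 29 and 30 and 7.10, 7.47 and 7.23 on the controls. The part of these markers in the Aqp8 difference was not tested.

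The other hepatocyte channel, Aqp9, gave 5.75, 5.78 and 5.66 on acrylamide arrays 27, 29 and 30, within the 5.63 to 5.86 of the controls. Its difference was -0.010 ± 0.13 log2 units (SE), with the narrowest liver interval, -0.34 to 0.32. Aqp11 was at 2.42, 2.28 and 1.86 after acrylamide, overlapping the controls, with a difference of 0.068 (95% interval -0.41 to 0.55). Aqp1 was at 4.53, 4.67 and 4.28, with a difference of 0.0035 and an interval of -0.46 to 0.46. These 3 genes were thus held to intervals within 0.55 log2 units of 0.

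The other 4 genes were dim in liver, and Aqp3 and Aqp5 had the widest intervals of the 8. Aqp7 was at -3.49, -3.12 and -2.80 after acrylamide, with a difference of 0.30 (95% interval -0.19 to 0.79), and Aqp4 at -2.86, -3.0 and -2.60, with a difference of -0.16 (-0.60 to 0.28). Aqp5 differed by 1.01 and Aqp3 by 0.71, with intervals of -1.37 to 3.39 and -0.88 to 2.31. The second Aqp5 spot differed by -0.17 ± 0.31 (SE), in the other direction. Without acrylamide 30 the Aqp3 difference was -0.020.

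In lung, the main Aqp5 spot had the narrowest interval of the 8 genes, with a difference of -0.0305 ± 0.099 log2 units (SE) and an interval of -0.27 to 0.21. Its second spot, also bright in lung, gave 0.25 ± 0.14 (SE), with the opposite sign and outside that interval. Aqp1 was at 5.73, 5.62 and 5.66 on acrylamide arrays 28, 29 and 30, all below the 5.75 to 5.98 of the controls. The gap between the groups was 0.014 log2 units, and 10.9% of all genes tested had groups that did not overlap. Its difference was -0.17 ± 0.10 (SE, 95% interval -0.43 to 0.083, adjusted p = 0.998). The mean of 8 endothelial markers was 3.92, 3.76 and 3.81 on these arrays and 3.98, 3.78 and 4.06 on the controls, and its part was not tested.

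Aqp4 was at 0.15, 0.05 and -0.04 after acrylamide in lung, inside the range of the controls, with a difference of -0.37 (95% interval -1.17 to 0.44). Aqp3 differed by -0.59 ± 1.31 log2 units (SE), an interval of -3.79 to 2.62 set by the scatter of both groups. Among lung arrays with title digit 1 its difference was -1.79, and among those with title digit 2 it was 1.88. Aqp11 was at -2.10, -2.51 and -2.40, with a difference of -0.21 (-0.54 to 0.11). Aqp7, Aqp8 and Aqp9 differed by 0.072, -0.083 and 0.091, and the groups overlapped for each.

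For no aquaporin did the difference between the lung and liver responses to acrylamide pass the threshold. The interaction, the lung difference minus the liver difference, ran from -1.30 for Aqp3 to 0.41 for Aqp8, and its adjusted p was 0.994 or higher for all 8 genes, where 0% of 23300 genes tested passed and 1035 (4.44%) had an unadjusted p under 0.05, none of them an aquaporin. Without liver acrylamide 30, 136 genes passed for the interaction, again with no aquaporin among them. None of the genes listed for glycerol handling, bile canalicular transport, alveolar ion and fluid transport or the osmotic response passed in either tissue. Their medians after acrylamide were 0.0595, 0.072, -0.0048 and -0.14 in liver and 0.030, 0.028, -0.0065 and -0.088 in lung, beside -0.020 and -0.0067 for all genes tested. The single largest of these was Pck1 in lung, at 0.98 ± 0.84 log2 units (SE, adjusted p = 0.998).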

How the data were processed

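Each deposited array file holds 1 linear Cy3 intensity per spot for 62976 spots, extracted by the authors with software that the submitters' processing notes name as Agilent Feature Extraction 10.7. Whether background was subtracted is not given in the sources used here, and saturation flags were not used. The authors' series matrix holds the same intensity multiplied by 1 factor per array. After 1319 control spots were left out, the 75th percentile of each array was subtracted on the log2 scale. A gene was read from its spot with the highest mean, and tested where at least 3 of the compared arrays were above background. Groups were compared with limma 3.58.1 (lmFit, eBayes) in R 4.3.3, using only the arrays compared, or all 12 for the interaction, with Benjamini-Hochberg adjustment over all genes, a threshold of 0.05 and 95% intervals from the moderated SE. The scripts were tested on simulated data. The 8 genes and the gene lists were chosen with earlier results of these data known, so counts over lists support no direction, and no list was tested. 1 gene of the alveolar ion and fluid transport list is counted in it but not reported here. Named were all 8 genes, the 2 to 4 genes of a described list with the largest difference, and the 3 genes nearest in pattern; Kdr, Krt5, Krt15, Krt19, Trp63, Dnah5, Sftpc, Abca3, Lipe, Pnpla2 and Scnn1b were singled out after their values were seen. Title numbers 4, 29 and 30 occur in both tissues. The deviations of these arrays from group means correlated at 0.01, -0.02 and -0.16 over 23300 genes. Tissues of the same animal need not vary alike, so these values cannot show whether a shared number marks a shared animal. The numbers were not taken as pairs in the main fits. The number of arrays limits the precision.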

Additional observations from a re-analysis of the deposited data

How the results depend on the processing

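All 8 tissue differences on untreated arrays kept their direction and their adjusted p under 0.05 under each alternative tried, as did those of the 7 genes called on acrylamide arrays, wherever the gene was tested; Aqp5 was not tested there when every array had to be above background. Between lung and liver, median scaling moved the median of all genes by 0.20 log2 units on untreated and 0.18 on acrylamide arrays, and quantile scaling by 0.29 and 0.32, without turning any aquaporin; the share of calls that were higher in lung went from 43% to 48.9% and 51% on untreated arrays and from 42.9% to 47.8% and 52.5% on acrylamide arrays. Using the mean of a gene's spots moved Aqp9 to -5.23 on untreated and -5.30 on acrylamide arrays, Aqp7 to -0.99 and -1.09, Aqp4 to 2.01 and 2.13, and Aqp5 to 9.59 and 9.27. With title number as a replicate block in the fit of all 12 arrays, 8, 7 and 0 aquaporins were called on untreated arrays, on acrylamide arrays and for the interaction, as without the block. No aquaporin was called for acrylamide or the interaction under any alternative, and some signs turned, among them those of Aqp3, whose differences were 0.71 in liver, -0.59 in lung and -1.30 in the interaction. In liver, Aqp9 was 0.071 with quantile scaling, 0.081 with the mean of spots and 0.027 within the arrays of title digit 1 (added after the data were seen); Aqp1 was -0.0085 with median scaling and -0.0135 within digit 1; and Aqp3 was -0.048 with array weights. In lung, Aqp5 was 0.11 with the mean of spots and 0.023 without acrylamide 29 and control 4, an alternative also added after the data were seen, with Aqp9 at -0.17. Aqp8 was 0.0001 with array weights, 0.040 with title digit as a block and 0.16 within digit 1, Aqp3 was 0.046 with digit as a block, and Aqp9 was -0.012 within digit 1. In the interaction, Aqp9 was -0.024 with quantile scaling, -0.070 with the mean of spots, -0.039 within digit 1 and -0.16 without the pair of lung arrays, Aqp4 was 0.12 with the mean of spots and 0.030 without the pair, and Aqp3 was 0.094 with array weights. The cause of these turns was not tested. The count of all genes called for the interaction, 0 here, was 139 with array weights, 136 without liver acrylamide 30, 8 without liver acrylamide 27, and 1 each without liver control 1 or lung acrylamide 30; that for acrylamide in liver was 2 in a fit of all 12 arrays and 1 without liver acrylamide 27. Tested spot by spot, the tissue comparisons called 34703 and 32488 spots, against 16700 and 16104 genes. Leaving out 1 array at a time gave, in liver, -0.14 to 0.11 for Aqp1, -0.048 to 0.23 for Aqp11, -0.020 to 1.35 for Aqp3 and -0.068 to 0.050 for Aqp9; in lung, -0.074 to 0.018 for Aqp5, -1.83 to 0.26 for Aqp3, -0.26 to 0.25 for Aqp8, -0.11 to 0.27 for Aqp9 and -0.0031 to 0.14 for Aqp7; and in the interaction, -0.59 to 0.028 for Aqp4 and -0.095 to 0.28 for Aqp9. Dim signals limit Aqp3, Aqp5 and Aqp7 in liver.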
